A study of Homo sapiens with 43 samples.

Results

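The gene set comprised 10 protein-coding genes whose products hold back apoptosis, out of 20037 protein-coding genes of the RefSeq GRCh38.p14 table. BCL2, BCL2L1, BCL2L2, MCL1 and BCL2A1 encode the anti-apoptotic BCL2 proteins, BIRC2, BIRC3, XIAP and BIRC5 encode members of the IAP (inhibitor of apoptosis) family, and CFLAR encodes the caspase-8 regulator c-FLIP. They were taken by name, and each was read in all 33 deposited peak lists. A list held a gene when it had a peak within 1 kb of either gene end (CDK9, Ser5P and Pol II) or over the gene span (Ser2P).

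CDK-TCIP1 joins a ligand of the transcription kinase CDK9 to a ligand of the repressor BCL6, and the study mapped by ChIP-seq where CDK9 and RNA polymerase II lay after its addition. SUDHL5 and KARPAS422 are established human cell lines from diffuse large B-cell lymphoma, and each group was one line given 30 nM CDK-TCIP1 or its DMSO vehicle. For CDK9, all at 2 h, there were 3 sets of 2 CDK-TCIP1 and 2 DMSO lists: SUDHL5 with the antibody ab239364, SUDHL5 with CST2316S, and KARPAS422 with CST2316S. In SUDHL5 polymerase phosphorylated on serine 5 (Ser5P, early in transcription) or serine 2 (Ser2P, elongating) of its tail had 2 lists each for CDK-TCIP1 at 2 h, CDK-TCIP1 at 4 h and DMSO at 4 h, and total polymerase (Pol II) had 3 lists each. The 2 h polymerase samples therefore differed from DMSO in time as well as in treatment, and both times shared the same DMSO lists. The labels give the CDK9 DMSO samples as 2 h while their deposited files are named as 0 h; the labels were followed, and the matching of CDK9 times rests on them.

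Anti-apoptotic BCL2 proteins bind the pore-forming effectors BAX and BAK1 and the BH3-only proteins, and so keep cytochrome c inside mitochondria. IAP proteins act further on: XIAP binds and inhibits caspases, the ubiquitin ligases encoded by BIRC2 and BIRC3 (cIAP1 and cIAP2) restrain caspase-8 and act in NF-kB signalling, and the product of BIRC5, survivin, also serves in chromosome segregation. BCL2 is a repressed target of BCL6 in germinal-centre B cells, and BIRC3, BCL2A1 and CFLAR are well-known NF-kB targets.

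RefSeq promoter sequences (GRCh38.p14) were matched for 7 of the 10 genes, with 14 promoters in all. MCL1, BCL2L2 and BIRC5 were named only. The 250 bases before the start of a listed promoter are shown for the 3 genes with the widest or most line-dependent CDK9 cover and for BCL2A1, the gene with no peak in any list. For BCL2 and CFLAR this promoter start lies inside the gene span, so their stretches do too, and the peak windows were set from the gene ends. Capitals mark matches to the NF-kB consensus on either strand, and TTCCNNGAA, a spaced motif that lies within BCL6 recognition sequences, would have been marked in the same way.

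BCL2, chr18:63319770-63320019, minus strand: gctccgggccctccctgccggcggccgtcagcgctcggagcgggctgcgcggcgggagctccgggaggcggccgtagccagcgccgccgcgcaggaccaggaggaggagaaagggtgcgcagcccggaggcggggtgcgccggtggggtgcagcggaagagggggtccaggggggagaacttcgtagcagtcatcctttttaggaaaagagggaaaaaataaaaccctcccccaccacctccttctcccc

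BIRC3, chr11:102317234-102317483, plus strand: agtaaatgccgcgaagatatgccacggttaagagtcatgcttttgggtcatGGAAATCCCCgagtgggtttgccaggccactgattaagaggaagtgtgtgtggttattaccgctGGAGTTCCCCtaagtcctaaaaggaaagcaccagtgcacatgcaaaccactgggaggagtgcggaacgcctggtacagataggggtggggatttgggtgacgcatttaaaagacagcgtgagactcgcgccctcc

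CFLAR, first promoter of the table, chr2:201118466-201118715, plus strand: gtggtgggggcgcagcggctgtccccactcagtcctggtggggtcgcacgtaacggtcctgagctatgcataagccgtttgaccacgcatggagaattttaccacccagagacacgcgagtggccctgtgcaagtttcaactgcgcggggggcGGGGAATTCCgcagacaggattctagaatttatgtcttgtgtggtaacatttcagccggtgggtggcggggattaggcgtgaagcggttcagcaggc

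BCL2A1, chr15:79971197-79971446, minus strand: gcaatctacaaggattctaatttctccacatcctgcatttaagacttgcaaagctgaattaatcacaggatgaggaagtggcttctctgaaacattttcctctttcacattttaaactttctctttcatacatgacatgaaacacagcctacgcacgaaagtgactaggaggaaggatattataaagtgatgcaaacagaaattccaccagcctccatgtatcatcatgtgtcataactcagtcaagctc

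The BIRC3 stretch held 2 NF-kB consensus matches and the CFLAR stretch 1, whereas 9.96% of 35116 promoters of the same length held at least 1. TTCCNNGAA, searched on both strands, was in none of the 14 promoters of the set and in 3.86% of all promoters. The BCL2 stretch carried 24 CpG dinucleotides and the BCL2A1 stretch 2, against a median of 11 over all promoters. These letters describe the windows and show no binding. CDK9 peaks covered some of the BCL2 stretch in 4 of 4 KARPAS422 lists and 0 of 8 SUDHL5 lists, and the BIRC3 stretch in 0 of 4 KARPAS422 lists and 7 of 8 SUDHL5 lists.

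The lists held 286511 peaks on the main chromosomes, with 138 to 28951 per list. CDK9 lists were longer after CDK-TCIP1: the covered length of a whole list was 7.71-fold that of DMSO for ab239364, 10.9-fold for CST2316S in SUDHL5 and 1.68-fold in KARPAS422, and these ratios are set beside those of the genes. Replicate 1 of Pol II was short in every group, with 1214 peaks at 2 h and 138 at 4 h after CDK-TCIP1, and 710 in DMSO. Of 8 germinal-centre B-cell marker genes, 7 to 8 had a Ser5P peak in each SUDHL5 list, against 2 of 4 T-cell genes (none at CD3D or CD2) and 1 of 5 myeloid genes (none at LYZ, CD14, CSF1R or MPO). CDK9 lists held 3 to 8 of the B-cell genes and Pol II lists 0 to 6. The T-cell genes CD3E, CD3D and LCK had a CDK9 peak in all 4 KARPAS422 lists, and CD2 had none. The lists hold no read totals, so depth is unknown.

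A gene was called gained when every CDK-TCIP1 list and no DMSO list held it, and lost in the opposite case. Most members were not called, and for CDK9 and phosphorylated polymerase most of these either had a peak in a DMSO list already or had none in any list. With ab239364 in SUDHL5, BIRC2 and BIRC5 were gained (2 of 10) beside 7.57% of all protein-coding genes, and 0 members were lost beside 0.00998%. Without DMSO replicate 2 of this set 4 were gained (BIRC3 and CFLAR too), beside 15% of all genes. With its lists shortened by rank to one equal length BIRC3 alone was gained, beside 0.19%. Among peaks with −log10 q of at least 5, BIRC5 and CFLAR were gained and BIRC2 was not, beside 5.51% of all genes gained. With CST2316S, 0 members were gained or lost in SUDHL5, beside 6.31% of all genes gained and 0% lost. With equal list lengths MCL1 was lost there, beside 0.464%. In KARPAS422 the count was also 0 in both directions, beside 4.38% gained and 0.629% lost.

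At the polymerase, XIAP was the one member called. It was lost for Ser2P at 2 h, beside 2.01% of all genes lost and 0.165% gained, and was not lost among peaks with −log10 q of at least 5. For Ser2P at 4 h 0 members were called, beside 1.59% gained and 1.08% lost. For Ser5P the count was 0 at 2 h, beside 2.73% gained and 0.26% lost, and 0 at 4 h, beside 1.4% gained and 0.419% lost. For Pol II it was 0 at 2 h, beside 0.17% gained and 0.00499% lost, and 0 at 4 h, beside 0% gained and 0.0299% lost. The call has no test for a single gene, since 2 lists against 2 cannot go below an exact two-sided p of 0.333 and 3 against 3 cannot go below 0.1. Nothing in the labels says that replicates came from separate cultures, so every exact p given here measures only the spread between these lists.

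**Figure D1:**
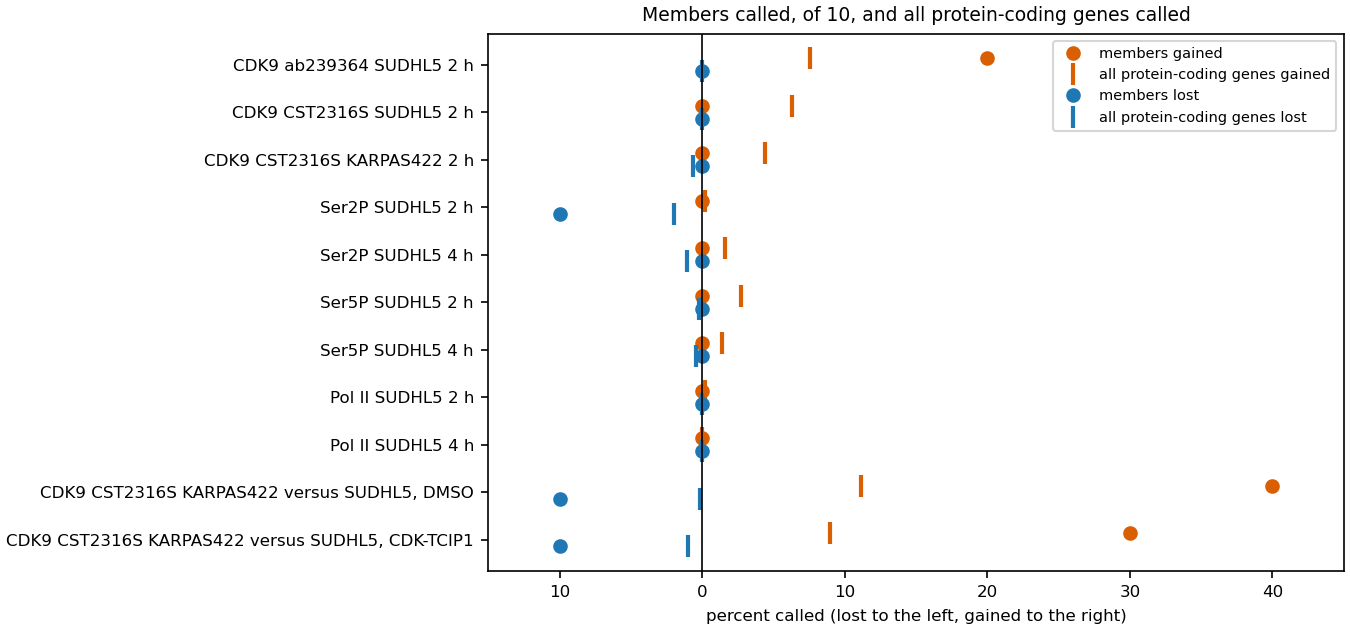
Percent of the 10 anti-apoptotic genes called (circles) and of all protein-coding genes called (vertical ticks) in 9 comparisons of CDK-TCIP1 with DMSO and 2 of KARPAS422 with SUDHL5; gained (in the last 2 rows, a peak in both KARPAS422 lists and no SUDHL5 list) is to the right of 0 and lost to the left. Members were gained by CDK-TCIP1 with ab239364 only (20%, tick at 7.57%). Under DMSO 40% of members were held by KARPAS422 alone (tick at 11.1%), where KARPAS422 lists covered 6.61 times the bases of SUDHL5 lists. With equal list lengths over both lines, BCL2 alone was still held by KARPAS422 only.

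The genes differed in how many lists held them in the windows defined above. MCL1 had a peak in 32 of 33 lists, CFLAR in 28, BIRC3 in 26, BCL2L1 and BIRC2 in 19 each, BIRC5 in 16 and XIAP in 14. BCL2 had one in 4 lists, all of KARPAS422 CDK9 (5 lists with peaks further inside the gene counted), BCL2L2 in 1 and BCL2A1 in 0. BCL2A1, an NF-kB-driven gene of activated B cells, thus had no peak for any target, line or treatment, and BCL2L2 had one of 0.559 kb in KARPAS422 CDK-TCIP1 replicate 1.

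**Figure D2:**
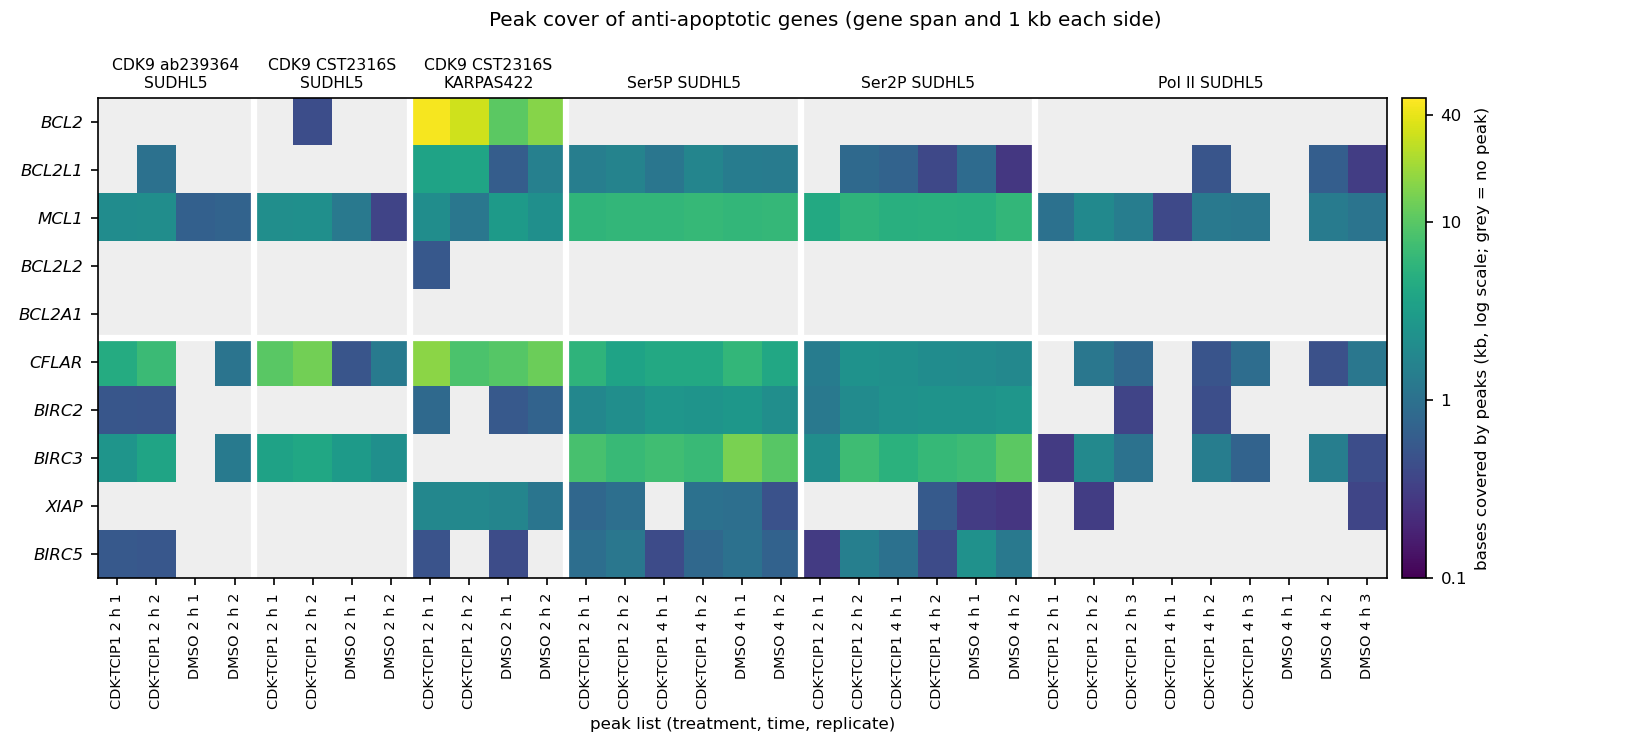
Bases covered by peaks (kb, colour on a log scale, grey for no peak) over each gene and 1 kb on each side, for 10 genes (rows) in 33 peak lists (columns, grouped by target, antibody and line, with CDK-TCIP1 left of DMSO). BCL2 has its cover in KARPAS422 CDK9 lists, but for 0.438 kb in SUDHL5 CST2316S CDK-TCIP1 replicate 2. BIRC3 has none in KARPAS422, and MCL1 is covered in all lists but Pol II DMSO replicate 1.

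Genes whose covered lengths did not overlap between CDK-TCIP1 and DMSO were also counted. With ab239364, 5 of the 6 members with cover were higher in both CDK-TCIP1 lists, beside 57% of all genes with cover. With CST2316S in SUDHL5 it was 3 of 4, beside 67.3%. In KARPAS422 BCL2, BCL2L1 and XIAP were higher (3 of 8, beside 36.6%), and MCL1 was lower (1 of 8, beside 6.87%). For Ser5P at 2 h BCL2L1 was higher (1 of 7, beside 33.2%), MCL1 and BIRC3 were lower (2 of 7, beside 6.4%), and at 4 h BIRC3 was lower (1 of 7, beside 12.1%). For Ser2P BIRC2 and XIAP were lower at 2 h (2 of 7, beside 23.5%), and at 4 h BIRC3 and BIRC5 were lower (2 of 7, beside 17.5%) and CFLAR was higher (1 of 7, beside 16.1%).

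BCL2 encodes the prototype anti-apoptotic protein and spans 197 kb (chr18:63123346-63320090). In KARPAS422 its CDK9 peaks covered 46.3 and 31.5 kb after CDK-TCIP1, against 10.5 and 16.1 kb in DMSO. Both CDK-TCIP1 lists lay above both DMSO lists, with 22 and 17 separate peaks against 7 and 11. The mean was 38.9 ± 10.4 kb after CDK-TCIP1 and 13.3 ± 3.97 kb in DMSO (SD, n = 2 each, ratio 2.92, exact permutation p = 0.333, the smallest that 2 against 2 allows). Of 4577 genes with cover in both groups, 16.1% had a ratio of 2.92 or more, and their median ratio was 1.39.

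In the CDK-TCIP1 lists the strongest of these peaks lay at the far end of the gene from its start. It spanned chr18:63126261-63130035 in CDK-TCIP1 replicate 1, where it ranked 3 of 14554 peaks by q with the authors' fold enrichment of 80.5. In CDK-TCIP1 replicate 2 it spanned chr18:63126261-63129270 and ranked 12 of 10297, at 34.2-fold. The peaks at the same place in DMSO were 3.81-fold in replicate 1 and 8.58-fold in replicate 2, and the best-ranked BCL2 peak stood 274 of 6689 and 540 of 7804 in those lists. Fold and rank depend on each list's own background and length, so each value describes its list, and the values above give no size of change between groups. The left edge of this peak was at position 63126261 in 3 of the 4 KARPAS422 lists and at 63126301 in the other. At the start, CDK-TCIP1 replicate 1 had one peak of 6.94 kb, which spanned the place of 2 separate peaks in the other lists. Those were 3.40 and 1.18 kb wide in CDK-TCIP1 replicate 2, against 2.70 and 1.10 kb in DMSO replicate 1 and 2.67 and 1.12 kb in DMSO replicate 2.

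In SUDHL5 the same gene was nearly empty. Of 8 CDK9 lists, CST2316S CDK-TCIP1 replicate 2 held a peak of 0.438 kb inside the gene and the other 7 held none, and 0 of 21 polymerase lists had a BCL2 peak of any form. No polymerase lists of KARPAS422 were analysed here, so whether polymerase lay on BCL2 in that line was not tested.

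**Figure D3:**
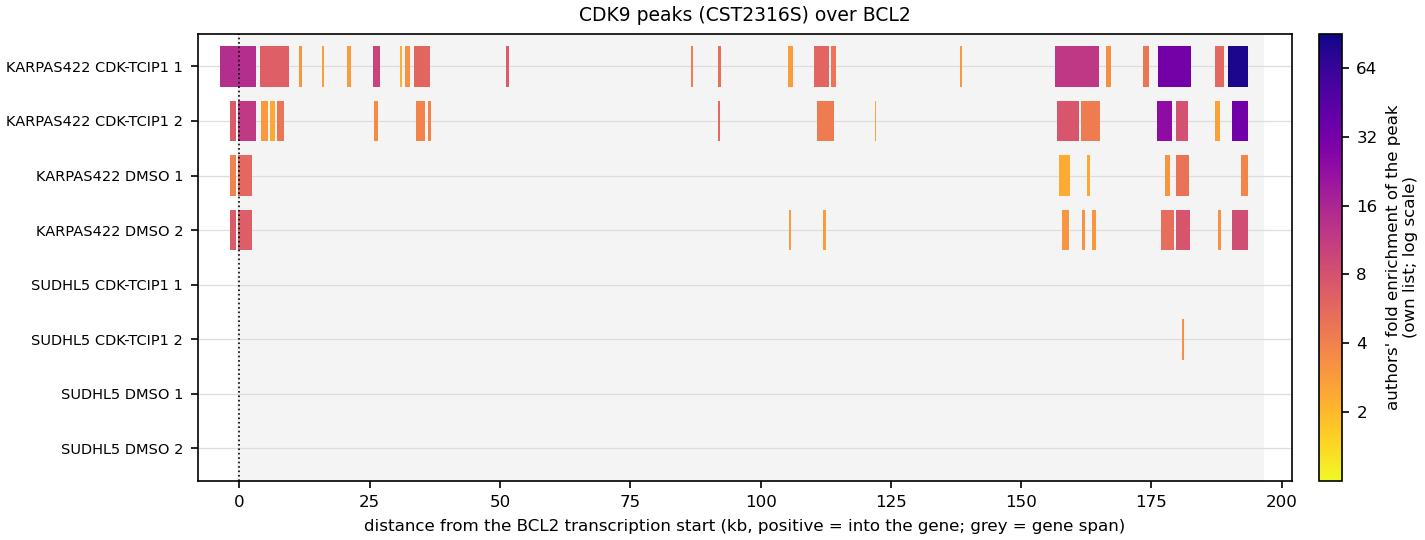
CDK9 peaks (CST2316S) along BCL2 in 8 lists, one row a list, drawn to scale by distance from the transcription start (kb, positive into the gene, grey for the gene span) and coloured by the authors' fold enrichment in that list (log scale). KARPAS422 CDK-TCIP1 lists carry 22 and 17 peaks and DMSO lists 7 and 11, with the strongest peak of each CDK-TCIP1 list at the far end, while SUDHL5 has 1 small peak.

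BCL2L1 encodes BCL-XL, which also guards mitochondria. Its KARPAS422 CDK9 cover was 3.71 and 3.88 kb after CDK-TCIP1, against 0.630 and 1.51 kb in DMSO. The groups did not overlap (ratio 3.55, exact permutation p = 0.333), and 11.4% of the 4577 genes had as large a ratio. The peaks at the start were 0.948 and 1.02 kb wide after CDK-TCIP1, against 0.630 and 0.835 kb in DMSO. The other peaks lay further inside the gene and met BCL2L1-AS1, so they cannot be assigned to either. In SUDHL5, CDK9 covered BCL2L1 in ab239364 CDK-TCIP1 replicate 2 (1.03 kb) and in no other CDK9 list. Ser5P cover was 1.44 and 1.61 kb at 2 h and 1.15 and 1.70 kb at 4 h, against 1.35 and 1.32 kb in DMSO. The 2 h lists lay just above DMSO and the 4 h lists on either side of it. Pol II peaks were in 0 of 3 lists at 2 h and 1 of 3 at 4 h, against 2 of 3 in DMSO.

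MCL1 encodes a short-lived protein that depends on continuous transcription, and it was the most steadily covered gene of the set. Its Ser5P peaks covered 5.85 and 6.12 kb at 2 h and 6.10 and 6.49 kb at 4 h, against 6.14 and 6.25 kb in DMSO, most of a 5.05 kb gene with its flanks, and its best peak ranked between 100 and 153 in all 6 lists. Pol II cover was 1.02, 1.90 and 1.39 kb at 2 h and 0.396, 1.23 and 1.19 kb at 4 h, against 0, 1.33 and 1.08 kb in DMSO. Those groups overlapped at both times (exact permutation p = 0.4 and 0.7, lists taken as unpaired). At 2 h each list lay above the DMSO list of the same replicate number, and at 4 h replicate 2 lay below. ADAMTSL4-AS1 ends beside the low end of MCL1 in the annotation, and LOC107985203 begins beside the high end, at chr1:150579830. Some CDK9, Pol II and Ser2P peaks reached past that position, and Ser5P peaks did so in all 6 lists. Ser5P and Ser2P peaks also lay over ADAMTSL4-AS1 in every list of those forms. A peak at either place cannot be assigned to MCL1 or to its neighbour.

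CDK9 cover of MCL1 lay on opposite sides of DMSO in the lines. With CST2316S this no longer held when the lists of each set were shortened by rank to one length, which differed between the lines. In KARPAS422 it was 2.13 and 1.18 kb after CDK-TCIP1, against 2.97 and 2.21 kb in DMSO. In SUDHL5 CST2316S cover was 2.14 and 2.23 kb after CDK-TCIP1, against 1.25 and 0.361 kb in DMSO, and ab239364 cover was 2.05 and 2.13 kb against 0.676 and 0.722 kb. The KARPAS422 difference minus the SUDHL5 difference with CST2316S was -2.32 kb (exact permutation p = 0.0556, the smallest that 36 relabellings allow and the lowest of the 9 members compared). With equal list lengths within each set, CST2316S cover in KARPAS422 was again 2.13 and 1.18 kb after CDK-TCIP1, against 2.97 and 2.21 kb in DMSO. In SUDHL5 it was then 0 and 0 kb after CDK-TCIP1, against 1.25 and 0.361 kb in DMSO. With CST2316S both lines were then lower after CDK-TCIP1, by 0.935 and 0.804 kb on average, and the difference between them was -0.131 kb. The SUDHL5 lists were cut to 1264 peaks and the KARPAS422 lists to 6689. At full length the MCL1 peaks after CDK-TCIP1 ranked 4192 and 3300 in SUDHL5 and 3666 and 1642 in KARPAS422. The SUDHL5 peaks fell outside their cut and the KARPAS422 peaks inside, so it cannot decide whether the lines differ. With ab239364 in SUDHL5, cut to 915 peaks, cover was 2.05 and 0 kb after CDK-TCIP1, against 0.676 and 0 kb in DMSO. At full length the SUDHL5 ratio was 2.72 with CST2316S, where the median gene had 5.89 and 26% of 804 genes had a ratio as low. With ab239364 it was 2.99, where the median gene had 2.76 and 45.9% of 3098 genes had a ratio as high.

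CFLAR encodes c-FLIP, which blocks caspase-8 at death receptors, and it showed the widest CDK9 cover of the set in SUDHL5. With CST2316S, cover was 10.3 and 13.3 kb after CDK-TCIP1, against 0.515 and 1.26 kb in DMSO. With ab239364 it was 4.62 and 6.89 kb after CDK-TCIP1, against 0 and 1.09 kb in DMSO. Neither antibody's groups overlapped. The ratios of 13.3 and 10.5 stood beside 10.9 and 7.71 for the whole lists, and 26.4% of 804 and 7.88% of 3098 genes with cover in both groups had ratios as large. The DMSO peaks lay by the start, and CDK-TCIP1 lists added peaks up to about 10 kb into the gene and again near 40 kb.

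In KARPAS422 CFLAR cover was 17.1 and 8.71 kb after CDK-TCIP1, against 9.68 and 12.3 kb in DMSO. These groups overlapped, and the gene was covered already in DMSO (ratio 1.17, exact permutation p = 1). The CDK-TCIP1 minus DMSO difference with CST2316S was 1.91 kb in KARPAS422 and 10.9 kb in SUDHL5, so that the lines differed by -8.98 kb (exact permutation p = 0.222). Ser5P cover of CFLAR was 5.65 and 3.69 kb at 2 h and 4.29 and 4.22 kb at 4 h, against 6.18 and 4.13 kb in DMSO, and the groups overlapped at both times. CFLAR-AS1 lies inside the gene, so peaks there cannot be assigned to a strand.

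**Figure D4:**
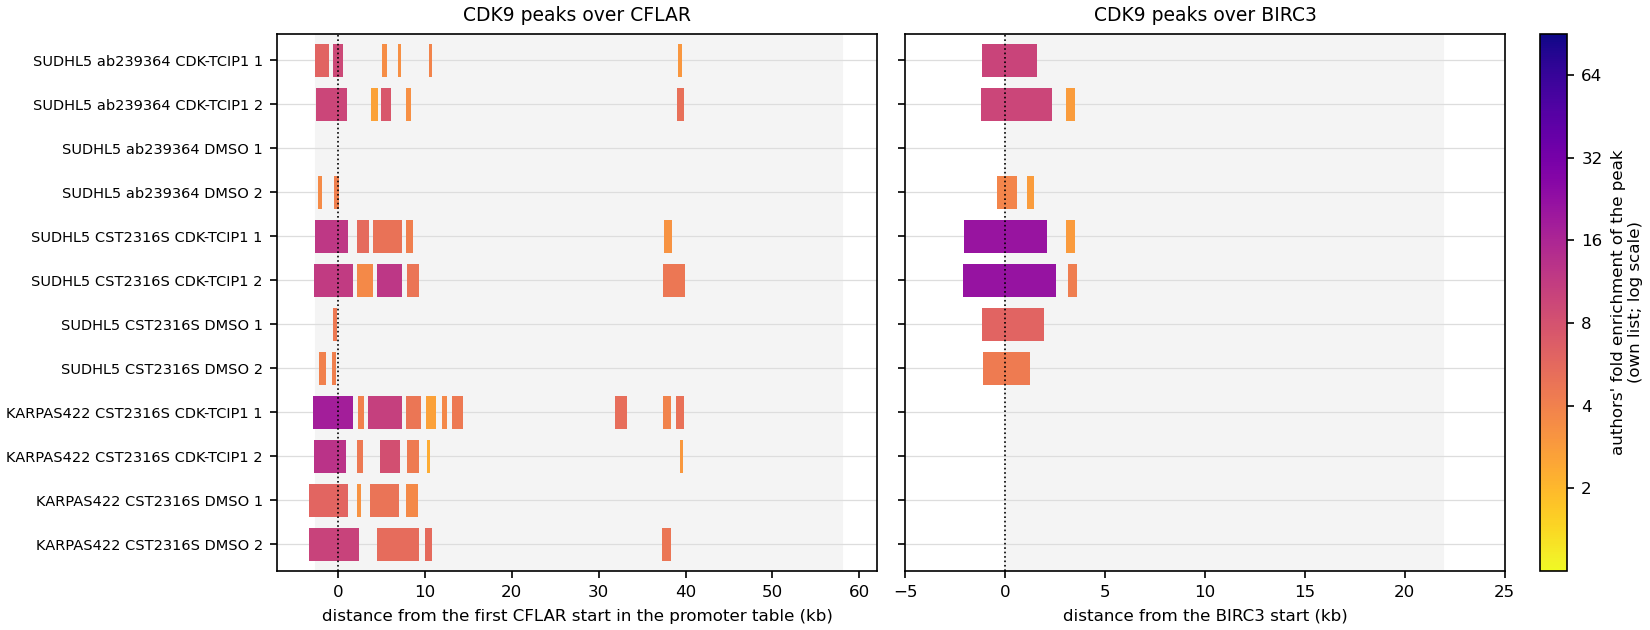
CDK9 peaks along CFLAR (left) and BIRC3 (right) in 12 lists, one row a list, by distance from the start (kb, positive into the gene, grey for the gene span) and coloured by the authors' fold enrichment in that list (log scale). Over CFLAR, SUDHL5 CDK-TCIP1 lists hold 5 or 6 peaks against 0 to 2 in DMSO, and all 4 KARPAS422 lists are covered; over BIRC3, 7 of 8 SUDHL5 lists have a peak at the start and KARPAS422 lists have none.

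BIRC3 encodes cIAP2 and was, after MCL1 and CFLAR, the gene with a peak in most lists, yet in KARPAS422 it had no CDK9 peak in 4 of 4 lists. In SUDHL5 CST2316S cover was 3.57 and 4.03 kb after CDK-TCIP1, against 2.92 and 2.24 kb in DMSO. Its ratio of 1.47 was under the 10.9 of the whole lists, and 12.8% of 804 genes had a ratio as low. The BIRC3 peak ranked 78 of 1611 and 132 of 1264 in the DMSO lists, so CDK9 was called at this start in vehicle-treated cells too. LOC124902739 ends beside this start in the annotation, at chr11:102317243, and a peak that reaches it cannot be assigned to BIRC3 or to this neighbour. With ab239364 cover was 2.57 and 3.79 kb after CDK-TCIP1, against 0 and 1.3 kb in DMSO. That ratio of 4.89 stood beside 7.71 for the whole lists and 2.76 for the median gene, and 23.5% of 3098 genes had one as large.

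Phosphorylated polymerase over BIRC3 covered less after CDK-TCIP1. Ser5P cover was 8.26 and 6.65 kb at 2 h and 7.52 and 6.80 kb at 4 h, against 14.3 and 9.91 kb in DMSO. No CDK-TCIP1 list reached a DMSO list at either time. The ratios were 0.616 at 2 h and 0.591 at 4 h (exact permutation p = 0.333 each), beside 1.05 and 0.869 for the whole lists. At 2 h 6.85% of 8178 genes with cover in both groups had a ratio as low, and at 4 h 13.7% of 8034 genes. Ser2P cover was 2.13 and 7.22 kb at 2 h and 5.31 and 6.42 kb at 4 h, against 7.07 and 10.5 kb in DMSO, with overlap at 2 h and none at 4 h. The Ser2P ratio was 0.531 at 2 h, beside 0.513 for the whole lists, and 35.9% of 7997 genes had one as low. At 4 h it was 0.666, beside 0.750, and 27.6% of 8482 genes had one as low. The 2 h Ser2P list of replicate 1 was the shortest of its kind, with 6519 peaks.

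The start and the rest of the gene were then measured apart. With the gene divided 3 kb after its start, a place chosen after the values were seen, Ser5P cover of the start part was 3.63 and 3.47 kb at 2 h and 3.43 and 3.09 kb at 4 h, against 3.58 and 2.99 kb in DMSO. Ser5P cover of the rest was 4.64 and 3.17 kb at 2 h and 4.09 and 3.71 kb at 4 h, against 10.7 and 6.92 kb in DMSO. For Ser2P the rest held 0.556 and 4.66 kb at 2 h and 3.07 and 4.19 kb at 4 h, against 4.92 and 8.33 kb in DMSO, while the start part held 1.57 and 2.55 kb and 2.24 and 2.23 kb, against 2.15 and 2.20 kb. In both forms the CDK-TCIP1 values for the rest of the gene all lay below the DMSO values of that form. Over all genes with cover in that part, the same was met at 13.5% for Ser5P at 2 h and 18.6% at 4 h, and at 33.1% for Ser2P at 2 h and 26.9% at 4 h. Pol II peaks were met at the BIRC3 start only, in 3 of 3 lists at 2 h and 2 of 3 at 4 h, against 2 of 3 in DMSO.

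**Figure D5:**
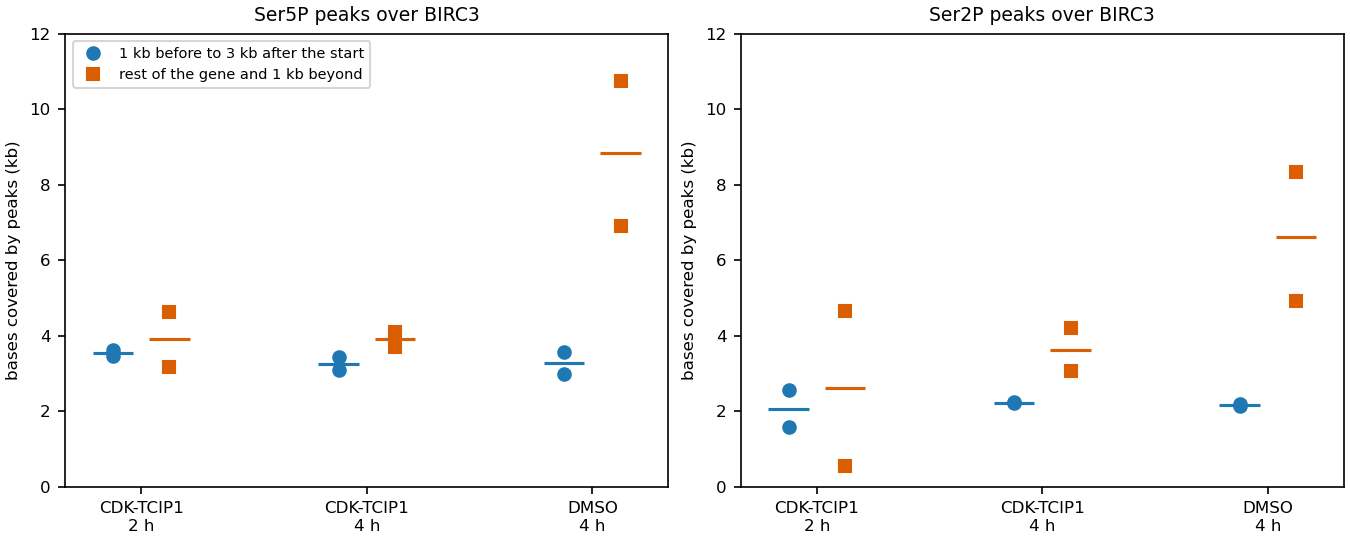
Bases of BIRC3 covered by Ser5P (left) and Ser2P (right) peaks in SUDHL5 (kb), for the part from 1 kb before to 3 kb after the start (circles) and for the rest of the gene with 1 kb beyond (squares); each point is one list and each line a mean of 2. The start part lies between 1.57 and 3.63 kb in every group, and the rest of the gene is lower in all CDK-TCIP1 lists than in the DMSO lists, as it was at 13.5% of genes for Ser5P at 2 h and 33.1% for Ser2P at 2 h.

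BIRC2 encodes cIAP1 and lies beside BIRC3 on chromosome 11. It was gained with ab239364 at 0.525 and 0.514 kb, against 0 and 0 kb in DMSO, and CST2316S found it in no SUDHL5 list. The gained peaks ranked 6949 of 9262 and 6650 of 11148, and BIRC2 was not gained among peaks with −log10 q of at least 5. In KARPAS422 cover was 0.842 and 0 kb after CDK-TCIP1, against 0.574 and 0.731 kb in DMSO, which overlap. Ser2P cover was 1.23 and 1.99 kb at 2 h and 2.32 and 2.45 kb at 4 h, against 2.44 and 2.59 kb in DMSO, lower than DMSO in both 2 h lists, the shortest list included.

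BIRC5, a gene of dividing cells, was likewise gained with ab239364, at 0.565 and 0.534 kb against 0 and 0 kb in DMSO, and CST2316S held it in 0 of 4 SUDHL5 lists. Its ranks there were 5055 and 5903. In KARPAS422 replicate 1 of each group held a peak, of 0.492 kb after CDK-TCIP1 and 0.426 kb in DMSO, and replicate 2 of each held none. Ser2P cover was 0.295 and 1.45 kb at 2 h and 1.02 and 0.417 kb at 4 h, against 2.31 and 1.23 kb in DMSO. The 4 h lists both lay below the DMSO lists.

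XIAP, the direct caspase inhibitor, was held by CDK9 in 4 of 4 KARPAS422 lists and 0 of 8 SUDHL5 lists. Its KARPAS422 cover was 1.80 and 1.80 kb after CDK-TCIP1, against 1.69 and 1.13 kb in DMSO. Ser2P cover at 2 h was 0 and 0 kb, against 0.301 and 0.269 kb in DMSO, and these small DMSO peaks ranked 19593 of 28951 and 12261 of 16593. At 4 h Ser2P cover was 0 and 0.583 kb. Ser5P cover was 0.789 and 0.961 kb at 2 h and 0 and 1.02 kb at 4 h, against 0.957 and 0.482 kb in DMSO, so that the groups overlapped at both times.

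Over the 12 CDK9 lists together, the mean over 3 sets of the covered length was compared gene by gene, with labels permuted exactly within each line. All 9 members with a peak had a higher mean after CDK-TCIP1, with a median difference of 0.612 kb, beside 89.9% of 9558 genes and a median of 0.231 kb. The differences were 8.60 kb for BCL2, 6.01 kb for CFLAR, 1.25 kb for BIRC3 and 1.08 kb for BCL2L1. With equal list lengths within each set they were 7.02, 2.12, 1.24 and 0.596 kb, and those of MCL1, BIRC2 and BIRC5 turned negative. BCL2, BCL2L1, BIRC5 and CFLAR each had an exact permutation p of 0.167, and an adjusted p over all 9558 genes of 0.482. No gene of the 9558 passed an adjusted p of 0.05 and 0 had an unadjusted p under 0.05, since 36 relabellings allow no p below 0.0556. With both SUDHL5 antibodies relabelled separately (216 relabellings), CFLAR had the lowest exact permutation p of the members, 0.037, with an adjusted p of 0.188. The smallest adjusted p of any gene was then 0.0861.

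KARPAS422 and SUDHL5 could be set side by side for CST2316S. Under CDK-TCIP1, BCL2, BCL2L1 and XIAP were held by both KARPAS422 lists and no SUDHL5 list (3 of 10, beside 8.98% of all genes), and BIRC3 by both SUDHL5 lists and no KARPAS422 list (1 of 10, beside 0.968%). Under DMSO, BCL2, BCL2L1, BIRC2 and XIAP were held by KARPAS422 alone (4 of 10, beside 11.1%) and BIRC3 by SUDHL5 alone (1 of 10, beside 0.16%). With summits in place of whole peaks, CFLAR took the place of BCL2L1 under CDK-TCIP1. Among peaks with −log10 q of at least 5, BIRC2 dropped out under DMSO. BCL2 cover was 46.3 and 31.5 kb in KARPAS422 against 0 and 0.438 kb in SUDHL5 under CDK-TCIP1. KARPAS422 DMSO lists covered 6.61 times the bases of SUDHL5 DMSO lists, and 1.02 times under CDK-TCIP1. When every list of both lines was shortened to one equal length by rank, a choice made after values were seen, BCL2 alone was held by KARPAS422 only, beside 0.843% of all genes under CDK-TCIP1 and 1.84% under DMSO. BIRC3 was still held by SUDHL5 only, beside 0.454% under CDK-TCIP1 and 0.299% under DMSO. Line and library cannot be told apart with 2 lists each.

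A list of 27 other genes of the pathway was read in the same way. With ab239364, 4 of 27 were gained beside 7.57% of all genes, namely BAD (a BH3-only protein), BAX (a pore-forming effector), CYCS (cytochrome c) and BIRC6 (a large IAP). With CST2316S in SUDHL5, 4 of 27 were gained beside 6.31%, the BH3-only genes BBC3, BCL2L11 and PMAIP1, and BCL2L12, and in KARPAS422 1 of 27 beside 4.38%, the initiator caspase CASP10. For Ser2P the BH3-only gene HRK was gained at 2 h (1 of 27, beside 0.165%), and HRK and BMF at 4 h (2 of 27, beside 1.59%). For Ser5P DIABLO, which encodes the IAP antagonist Smac, was lost at both times (1 of 27 each, beside 0.26% and 0.419%). For Pol II 0 of 27 were called, beside 0.17% gained at 2 h and 0% at 4 h.

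The percent of each gene covered by peaks was also compared between genes over the 33 lists, which share target, antibody and list length. The genes most like MCL1 were EEF1A1 and RPLP0 (Pearson r 0.98 each), an elongation factor gene and a ribosomal protein gene. Those most like CFLAR were PRKCH and WIPF1 (0.98 and 0.97), and those most like BIRC3 were VLDLR and RBM39 (0.95 each). BIRC2 was nearest to RPL18 and TMEM88 (0.97 each), BCL2L1 to PRORP and TAP1 (0.96 each), BIRC5 to DOT1L (0.95) and PHRF1 (0.94), and XIAP to BABAM2 (0.93) and RBKS (0.92). BCL2, BCL2L2 and BCL2A1 had peaks in fewer than 10 lists and were not compared.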

How the data were processed

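ChIP-seq peak lists of 33 samples were used; the 10 input samples have no list of their own in what was used here. The tools named in the submitters' processing notes are Bowtie2, MACS2, Picard, SAMtools, FastQC, Trim Galore, deepTools and bedtools, with hg38 and dm6 as builds; their versions and the control behind each call are not given in the sources. Per the labels' protocols, CDK9 samples carried a Drosophila chromatin spike-in, and no value scaled to it was used. The deposited lists, one per sample, give for each peak the authors' fold enrichment, a ratio to that list's own background, and the authors' −log10 p and −log10 q values, which were used only to rank or filter peaks within a list. The lowest −log10 q was 1.301, and 25 peaks on other contigs were left out.

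Gene positions came from the RefSeq GRCh38.p14 table, the build of the lists. Covered length is the bases of the gene and 1 kb on each side under peaks; it grows with list length. Tests were exact two-sided permutations of list labels with Benjamini-Hochberg adjustment over all genes (Python 3.11.15, numpy 2.4.6), tested on simulated data. The 10 genes, the pathway list and the comparisons were chosen with earlier results of these data known. Named genes were all members, pathway genes called between treatments (their calls between the lines are not reported here), and the 2 genes most like each member with a peak in at least 10 lists, over 100 kb away. Alternatives were −log10 q of at least 5, a 2.5 kb window, summits, equal list lengths, a replicate block, separate relabelling of the antibodies, leaving out each list, and, added after values were seen, equal lengths across both lines, Pol II without replicate 1, the MCL1 difference between lines at equal list lengths, and genes divided 3 kb after the start.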

Additional observations from a re-analysis of the deposited data

Results flagged for a closer look

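MCL1 was picked out because its CDK9 cover with CST2316S moved in opposite directions in the lines. The CDK-TCIP1 minus DMSO difference was -0.935 kb in KARPAS422 and 1.38 kb in SUDHL5, and the difference between them was -2.316 kb, with an exact two-sided permutation p of 0.0556, the smallest that 36 relabellings allow. In KARPAS422 both CDK-TCIP1 lists (2.13 and 1.18 kb) lay below both DMSO lists (2.97 and 2.21 kb), and in SUDHL5 both (2.14 and 2.23 kb) lay above (1.25 and 0.361 kb). Whole-list cover after CDK-TCIP1 was 1.68-fold that of DMSO in KARPAS422 and 10.9-fold in SUDHL5. With lists of equal length within each set (6689 peaks in KARPAS422, 1264 in SUDHL5) the lines no longer differed in direction. The KARPAS422 lists then gave the same -0.935 kb and the SUDHL5 lists -0.804 kb (0 and 0 kb after CDK-TCIP1, against 1.25 and 0.361 kb in DMSO), and the difference between the lines was -0.131 kb. After CDK-TCIP1 the SUDHL5 peaks ranked 4192 and 3300, outside their cut, and the KARPAS422 peaks 3666 and 1642, inside theirs. These unlike cuts cannot decide whether the lines differ.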

How the results depend on the processing

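Of the 22 counts of called members, none moved by more than 1.5 times under a 2.5 kb window or under summits in place of whole peaks, though the members could differ: under summits CFLAR stood in place of BCL2L1 among those held by KARPAS422 alone under CDK-TCIP1, and with −log10 q of at least 5 CFLAR stood in place of BIRC2 among those gained with ab239364. With lists shortened by rank to one equal length, 1 member was gained with ab239364 (BIRC3 in place of BIRC2 and BIRC5, beside 0.19% of all genes). In SUDHL5 with CST2316S 1 was lost (MCL1, beside 0.464%). For Ser2P at 2 h 0 were lost (beside 0.988%), and for Ser5P at 2 h 1 was gained (XIAP, beside 3.25%). Under −log10 q of at least 5 the last 2 counts were again 0 and 1 (beside 1.61% and 4.21%). With equal list lengths over both lines, 1 member (BCL2) was held by KARPAS422 alone under CDK-TCIP1 and 1 under DMSO (beside 0.843% and 1.84% of all genes). BIRC3 stayed held by SUDHL5 alone (beside 0.454% and 0.299%). Leaving out each list in turn, the gained count ranged from 2 to 4 with ab239364. It was 4 (BIRC2, BIRC3, BIRC5 and CFLAR) without DMSO replicate 2, beside 15% of all genes. With CST2316S it ranged from 0 to 1 in SUDHL5 (CFLAR, without DMSO replicate 2, beside 6.7%). In KARPAS422 it also ranged from 0 to 1 (BCL2L2, without CDK-TCIP1 replicate 2, beside 9.06%). The lost count ranged from 0 to 1 in KARPAS422 (BIRC2, without CDK-TCIP1 replicate 1, beside 2% of all genes). For Ser2P at 2 h it ranged from 1 to 2 (BCL2L1 and XIAP, without CDK-TCIP1 replicate 2, beside 14.3%). At 4 h it ranged from 0 to 1 for Ser2P and for Ser5P (XIAP, without CDK-TCIP1 replicate 2, beside 2.27% and 3.1%). For Pol II at 2 h it ranged from 0 to 1 (BCL2L1, without DMSO replicate 1, beside 0.255%), and was 1 also without replicate 1 of both groups (beside 0.274%). Between the lines under CDK-TCIP1 the count held by KARPAS422 alone ranged from 3 to 6, the highest without KARPAS422 CDK-TCIP1 replicate 2 (beside 15.7% of all genes). The cause was not tested. CDK9 covered-length differences turned negative with equal list lengths for MCL1 (-0.351 kb), BIRC2 (-0.0772 kb) and BIRC5 (-0.071 kb), and leaving out each list gave BIRC2 -0.0443 kb (without KARPAS422 CDK-TCIP1 replicate 1) to 0.236 kb (without its replicate 2). With labels swapped only between lists of equal number (replicate block), BCL2 kept its difference of 8.60 kb with an exact permutation p of 0.25, the 16 relabellings allowed no p below 0.125, and no call moved. Whether equal numbers pair these lists was not settled. Deviations of the 2-list sets correlated at -0.0559 to 0.0969, and no Pol II comparison had all 3 pairs over 0.1. Yet for Pol II, replicate 1 was the shortest list and replicate 2 the longest in every group. Peak lists hold no read totals, so a missing peak may be a matter of depth, which was not tested.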
